A study of Homo sapiens with 6 samples.

Results

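SAS is an established human cell line from a squamous cell carcinoma of the tongue, and its RNA was set against that of HSC3 and HSC4, both likewise established lines of tongue squamous cell carcinoma. The comparison takes 2 of the 6 libraries of the study, SAS in DMEM (Dulbecco's modified Eagle medium) and SAS in HPLM (human plasma-like medium, a culture medium with metabolites at levels near those of blood plasma), against HSC3 and HSC4 in the same media, 2 libraries each. The submitters' design text names the effect of medium as their question, so the contrast between lines is one that the design contains without naming. No line was edited or treated, all cultures had heat-inactivated fetal bovine serum, and polyadenylated RNA was sequenced in strand-specific libraries. Each line gave 1 library per medium and no culture was repeated in the same medium, so every p-value below measures only the spread left over by line and medium.

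Squamous epithelium rests on a basal layer that makes keratins 5 and 14, the transcription factor p63, desmosomes and laminin-binding integrins. Stressed or wounded squamous cells add keratins 6, 16 and 17 and secrete antimicrobial proteins, while keratins 7, 8, 18 and 19 belong to simple and glandular epithelium. Carcinoma lines from the same site keep different parts of these programmes, and they differ in class I antigen presentation, in growth factor signalling and in the number of copies of chromosome segments that they carry.

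The 4 genes proposed as marks of SAS were far above both other lines in both media. They were proposed from earlier results of these data, so their direction is a description and supports nothing. Values are CPM, transcript abundance already corrected for length and scaled to the same total in every library, so that levels may be compared between genes. KRT7, a simple-epithelial keratin, was at 1740 CPM in DMEM and 1669 CPM in HPLM in SAS, at 15 and 21 in HSC3 and at 67.2 and 101 in HSC4. KLK6, a secreted serine protease of the kallikrein family, was at 251 and 212 CPM in SAS against 2.97 to 6.32 CPM in the 4 other libraries. IGFL1, a secreted protein of the insulin growth factor-like family, was at 108 and 66.7 CPM in SAS and between 0.347 and 1.13 CPM elsewhere. KRTAP2-3, a keratin-associated protein of the hair shaft, was at 122 CPM in DMEM and 569 CPM in HPLM in SAS, and between 1.35 and 6.54 CPM elsewhere. For all 4 genes the lower SAS library lay above the highest library of the other lines, and KRTAP2-3 alone of the 4 differed more than 4-fold between the SAS libraries.

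SAS carried the markers of squamous epithelium, and also a high level of KRT7, which belongs to the simple and glandular ones. All 10 genes set as squamous markers (KRT5, KRT14, KRT6A, KRT17, TP63, DSG3, PKP1, CDH1, EPCAM and SFN) were at 1 CPM or more in every library. CDH1 and EPCAM among them are not particular to squamous epithelium. The 10 genes summed to 2526 and 1763 CPM in SAS, 6109 and 5192 in HSC3, and 3391 and 3134 in HSC4. Of 12 fibroblast markers, 1 was at 1 CPM or more in both SAS libraries and COL3A1, LUM, THY1, POSTN and PDPN were at 0 there. The summed fibroblast level was 10.5 to 15.7 CPM in SAS and 15.4 to 33.2 CPM in the other lines. Of 12 leukocyte markers, 3 reached 1 CPM in both SAS libraries, with CD3D, CD3E, MS4A1 and NKG7 at 0, and 0 of 10 endothelial markers did. The summed leukocyte level was 64.9 and 81.1 CPM in SAS, 79.4 and 88.3 in HSC3 and 52.4 and 58.3 in HSC4. The 12 markers of glandular and ductal epithelium summed to 2717 and 2649 CPM in SAS, above its squamous sum and above the 920 to 1113 CPM of the other lines, and KRT7 alone made up 1740 and 1669 CPM of that sum. KRT7 was proposed from these data, so the higher glandular sum is a description and supports nothing. Of the 7 glandular markers tested 1 was SAS-high and 1 SAS-low.

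The SAS libraries did not stand apart in size or content. Summed values per library were 17716006 to 20171713, between 11975 and 12510 genes reached 1 CPM, and genes of the mitochondrial genome took 12 to 15.1% of a library. Of 14123 genes tested with edgeR's quasi-likelihood test, with line and medium as terms and Benjamini-Hochberg adjustment, 2829 were higher in SAS than the mean of HSC3 and HSC4 and 2793 were lower at an adjusted p under 0.05, 39.8% of genes tested. Against HSC3 alone 2551 were higher and 2766 lower (37.6%), and against HSC4 alone 2724 were higher and 2899 lower (39.8%). A gene is called SAS-high or SAS-low here where it passed in all 3 contrasts in 1 direction, which 1262 genes (8.94%) and 1411 genes (9.99%) did, 18.9% together. In 1255 of the SAS-high and 1383 of the SAS-low genes both SAS libraries lay outside the range of the 4 others, as they did in 21.2% of all genes tested on the high side and 21.0% on the low side. The SAS-low genes were further from 0: their median log2 fold change against the mean of the other lines was -1.26, that of the SAS-high genes was 0.92 and that of all genes tested was 0.01. A log2 fold change of 2 or more, with genes at 0 in a line set at the floor of 3 counts per library, was reached by 249 SAS-high and 396 SAS-low genes.

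Those counts depend on how the spread is estimated. In a pooled contrast, with HSC3 and HSC4 treated as 1 group so that the difference between them counts as error, 161 genes were higher (1.14%) and 186 lower (1.32%), and all of them were among the SAS-high and SAS-low genes. With 1 library left out, the SAS-high count was 442 without SAS in DMEM, 598 without SAS in HPLM, 545 and 592 without HSC4 in DMEM or HPLM, and 800 and 824 without HSC3 in DMEM or HPLM. The SAS-low count was 680 and 821 without either SAS library, 815 and 764 without either HSC4 library, and 1014 and 1038 without either HSC3 library. Without TMM scaling the split moved towards lower calls, to 972 SAS-high and 1622 SAS-low genes, and against HSC4 alone to 1889 higher and 3583 lower. In bulk RNA, fewer cells that make a transcript and less of it per cell cannot be told apart.

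**Figure D1:**
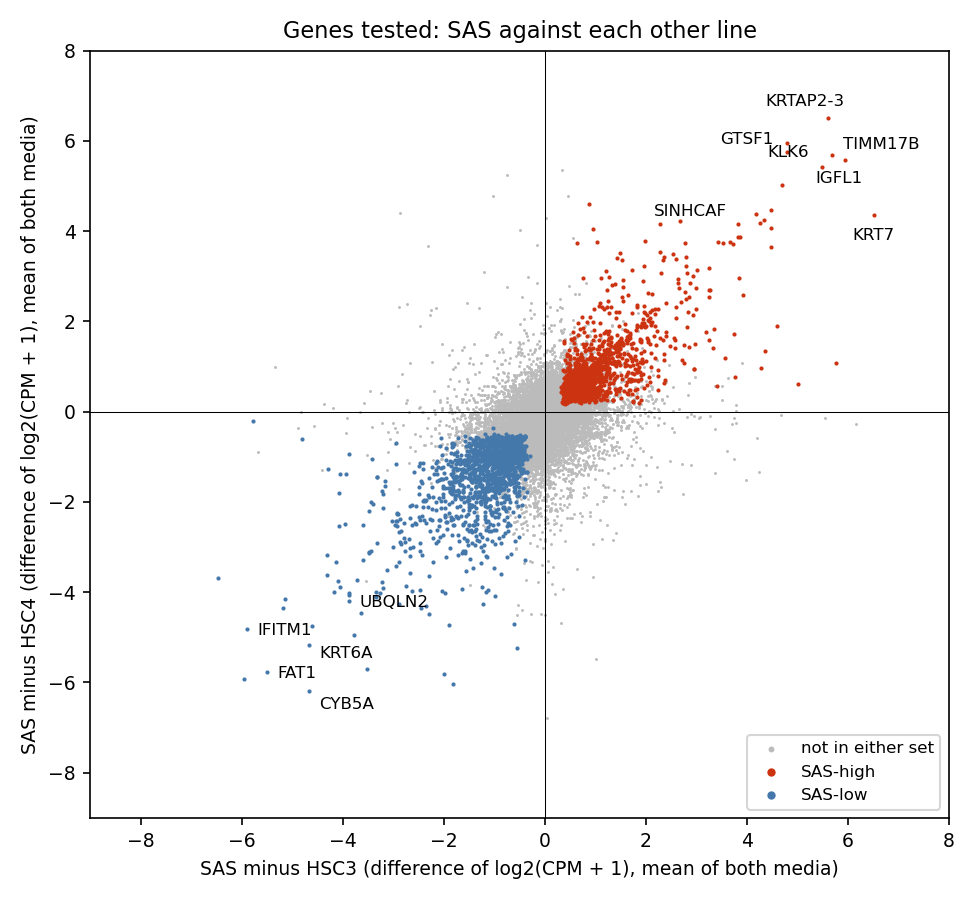
Difference of mean log2(CPM + 1) between SAS and HSC3 (x axis) and between SAS and HSC4 (y axis) for each gene tested, without genes of the Y chromosome and XIST; red points are the SAS-high and blue points the SAS-low genes. KRT7, KLK6, IGFL1, KRTAP2-3, TIMM17B and GTSF1 lie far to the upper right, and FAT1, CYB5A and IFITM1 far to the lower left. KRT7 lies farther from HSC3 (6.51) than from HSC4 (4.36), and CYB5A farther from HSC4 (-6.18) than from HSC3 (-4.68).

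A handful of genes were on in SAS and at or near 0 in both other lines. By a rule of 10 CPM or more in both SAS libraries and a value of 3 or less in each of the 4 others, 5 genes were found in SAS alone. BARX1, a homeobox factor of jaw and stomach mesenchyme, was at 21.9 and 20.4 CPM in SAS and at 0 in the 4 others, which makes it at least 135-fold higher against a floor of 3 counts per library. DPYSL5, a cytosolic protein of growing nerve cell processes, was at 12.2 CPM in both SAS libraries and at 0 elsewhere, at least 78-fold higher. C1DP1, a processed pseudogene, was at 11 and 16.7 CPM in SAS and 0 elsewhere, at least 88.7-fold higher, although reads of its parent gene could have been assigned to it. GAL, which encodes the neuropeptide galanin, was at 15.5 and 21.2 CPM in SAS against a summed value of 2 in the 4 others, a ratio of 707 with an exact 95% counting interval of 195 to 5849. AADAC, a microsomal esterase of liver and gut, was at 25.5 and 15.4 CPM in SAS against a summed value of 6, a ratio of 259 (118 to 708). With DESeq2 in place of edgeR, BARX1, DPYSL5 and C1DP1 passed against the mean and not in all 3 contrasts. In the pooled contrast BARX1, GAL and AADAC passed (edgeR adjusted p = 0.0471, 0.0314 and 0.0341), and DPYSL5 (0.056) and C1DP1 (0.0535) did not. These intervals cover counting error only, and the values are scaled abundances and not read counts, so they are approximate.

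The reverse pattern was rarer. By the same rule 2 genes were missing from SAS alone. UBQLN2, a ubiquitin-binding shuttle protein, had a value of 1 in DMEM and 0 in HPLM in SAS and 13.5 to 18 CPM in the other lines, a ratio of the other lines to SAS of 619 (exact 95% counting interval 111 to 24462). SDR42E1, a short-chain dehydrogenase, had a value of 2 in each SAS library and 14.4 to 19.9 CPM in the others, a ratio of 158 (61.4 to 579). At 5 CPM in place of 10 the rule found 5 genes missing from SAS, and at 20 CPM it found 0 missing from SAS and 1 in SAS alone.

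Among protein-coding SAS-high genes with 5 CPM or more in both SAS libraries, the 15 with the largest fold change also held PPARG, PRKAR2B, PCSK1N, TIMM17B, LRP3, ECHDC3, GLB1L2, GTSF1 and TWIST2. TIMM17B, a subunit of the mitochondrial inner membrane import channel, had the smallest adjusted p of the genes named here. It was at 67.4 and 78.4 CPM in SAS and between 0.395 and 0.468 CPM in the 4 others, which gave a log2 fold change of 7.46 (SE 0.14) and an adjusted p of 9.22e-05 in edgeR. Its main transcript, TIMM17B-201, was at 52.2 and 60.4 CPM in SAS and at 0 in the 4 others, and a different transcript, TIMM17B-203, made up nearly all of what the others had. GTSF1, a germ-line factor of the piRNA pathway, was at 62.9 and 66.2 CPM in SAS against 0.169 to 1.68 CPM (log2 fold change 6.95, SE 0.19). PPARG, the nuclear receptor that drives fat cell differentiation, was at 38.6 and 25.4 CPM in SAS, 0.356 and 0.149 in HSC3 and 0 in both HSC4 libraries, where it was at least 197-fold lower than in SAS. ECHDC3, a mitochondrial enoyl-CoA hydratase-like protein, was at 19.9 and 15.6 CPM in SAS, at 1.98 and 1.88 in HSC3 and at 0 in HSC4. In each of these genes, and in PCSK1N, a neuroendocrine proprotein, at 8.11 and 8.94 CPM against 0 to 1.19, both SAS libraries lay above all 4 others. PPARG, TIMM17B and GTSF1 passed in the pooled contrast (edgeR adjusted p = 0.0355, 0.00185 and 0.0407), and ECHDC3 (0.197), TWIST2 (0.192) and PCSK1N (0.128) did not; PCSK1N did not pass against the mean in DESeq2 either (log2 fold change 7.52).

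The genes described next are among the 15 largest falls of protein-coding SAS-low genes at 5 CPM or more in all 4 other libraries. FAT1, an atypical cadherin that is a frequent target of inactivating mutation in oral squamous carcinoma, was at 0.0533 and 0.795 CPM in SAS and at 59.6 to 80.6 CPM in the 4 others (log2 fold change -7.16, SE 0.49, edgeR adjusted p = 0.000758). Its main transcript, FAT1-201, was at 0.0309 and 0.0177 CPM in SAS against 20 to 42.5 CPM. JPH1, a junctophilin that ties plasma membrane to endoplasmic reticulum, was at 0 in both SAS libraries and at 6.99 to 13 CPM elsewhere, at least 68.8-fold lower. CYB5A, cytochrome b5, was at 0.373 and 0 CPM in SAS, at 25.2 and 33.4 in HSC3 and at 80.4 and 87.7 in HSC4. TUSC3, a subunit of the oligosaccharyltransferase, was at 0.427 and 0.596 CPM in SAS against 29.4 to 58.5 CPM, and SLCO1B3, an organic anion carrier, at 0 and 0.447 against 14 to 38.8 CPM. IFITM1, an interferon-induced membrane protein, was at 2.88 and 1.29 CPM against 66.7 to 183 CPM. Its near-identical neighbour IFITM2, whose reads overlap in sequence with IFITM1, was at 0.693 and 0.745 CPM against 7.06 to 154 CPM. The IFITM2 call was lost without SAS in DMEM, where the log2 fold change was -5.63 beside -6.48 with all libraries, and in the pooled contrast, as was that of SLCO1B3 (edgeR adjusted p = 0.0984 and 0.0535). With limma-voom in place of edgeR, IFITM2 passed against the mean and not in all 3 contrasts.

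**Figure D2:**
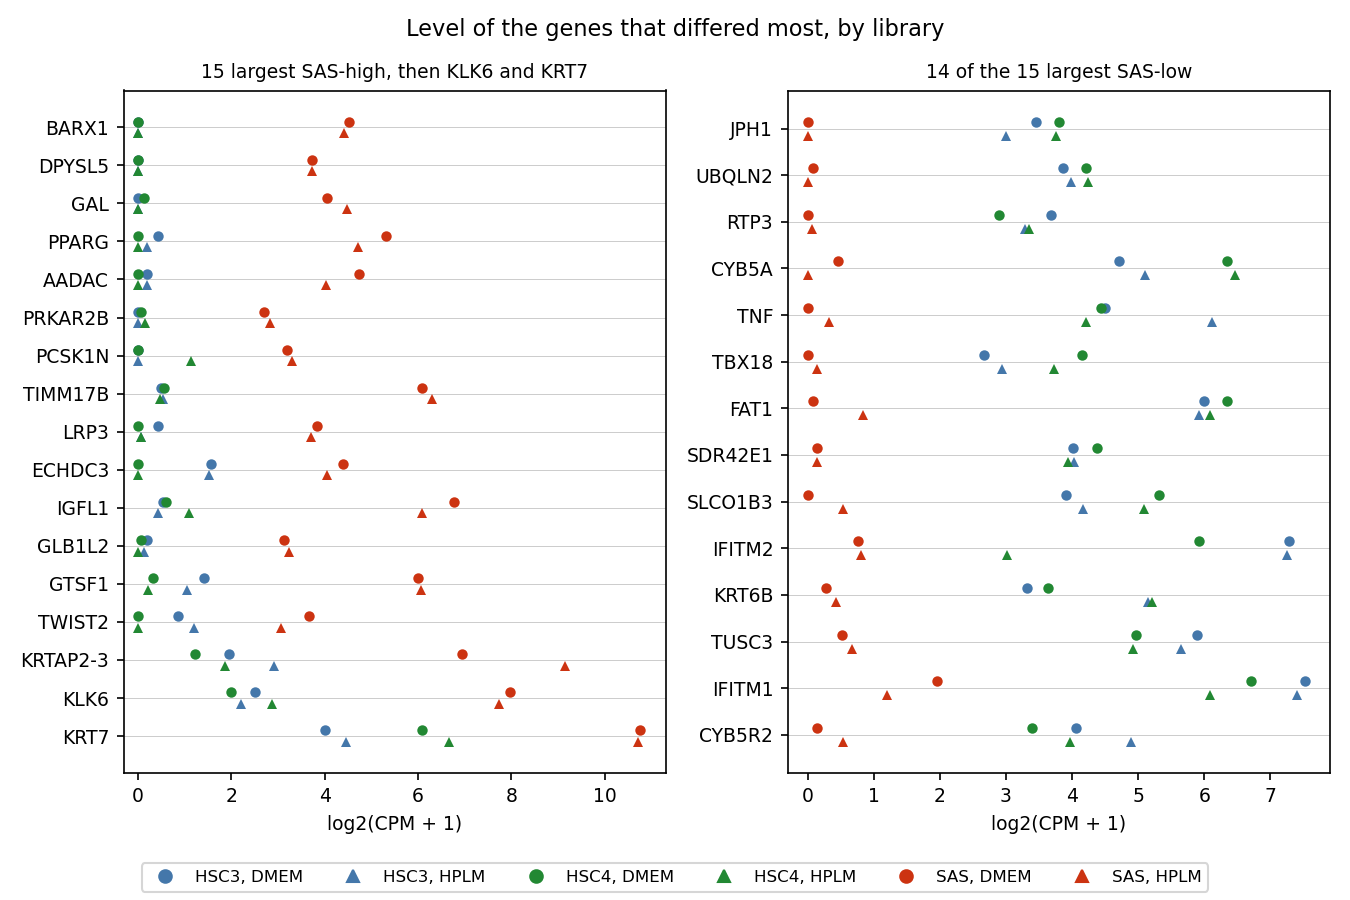
Level in log2(CPM + 1) of the 15 SAS-high and 14 of the 15 SAS-low protein-coding genes with the largest fold change, with KLK6 and KRT7 added on the left, in each of 6 libraries; colour is the line, circles are DMEM and triangles HPLM. In every row the red SAS symbols lie on 1 side of all blue HSC3 and green HSC4 symbols, with KRT7 at 1740 and 1669 CPM and TUSC3 at 0.427 and 0.596 CPM in SAS.

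Most basal and stress keratins tested were SAS-low, and 2 simple-epithelial keratins were SAS-high. Of 8 basal and stress keratins tested, 0 were SAS-high and 6 were SAS-low, with a median log2 fold change of -2.71 beside 0.01 for all genes tested. Each list count here and below is to be read beside the 8.94% of all genes tested that were SAS-high and the 9.99% that were SAS-low. Of 6 simple-epithelial keratins, 2 were SAS-high and 0 SAS-low, with a median of 1.40. Of 3 keratin-associated proteins 2 were SAS-high, and 1 was without either HSC4 library or either SAS library. KRT7 and KRTAP2-3, which were proposed from these data, are among the SAS-high members, so both SAS-high counts are descriptions and support nothing. KRT6A, the main wound-induced keratin, was at 13 and 7.7 CPM in SAS against 245 to 475 CPM (log2 fold change -4.94, SE 0.32, edgeR adjusted p = 0.000687). Its near-identical copy KRT6B, between which reads may be split, was at 0.213 and 0.348 CPM against 9 to 36.2 CPM. KRT15, a keratin of basal and stem-like cells, was at 9.33 and 8.65 CPM in SAS, 33.1 and 14.9 in HSC3 and 83.8 and 82.9 in HSC4, and its SAS-low call was lost without SAS in DMEM, where the log2 fold change was -1.98.

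The 2 defining basal keratins did not separate SAS from both lines. KRT5 was at 835 and 479 CPM in SAS, below the 963 to 2135 CPM of the others, and passed against their mean (log2 fold change -0.99, edgeR adjusted p = 0.00783) but not in all 3 contrasts. Its partner KRT14 was at 203 and 154 CPM in SAS, between HSC3 at 1460 and 1139 and HSC4 at 4.79 and 11.3, with an adjusted p of 0.0659 in the edgeR contrast against the mean. KRT18 was at 951 and 963 CPM in SAS against 768 to 932 CPM elsewhere (edgeR adjusted p = 0.0679), and KRT19 at 109 and 143 CPM lay between HSC3 and HSC4. KRT7 in SAS lay within the range of KRT5 in HSC3. Its transcript KRT7-201 was at 1390 and 1283 CPM in SAS and 1.79 to 3.82 CPM elsewhere, and the KRT7 signal of HSC4 lay mostly on another transcript, at 49 and 71.1 CPM there and 48.9 and 52.8 CPM in SAS. KRT6A, KRT6B and KRT7 passed in the pooled contrast (edgeR adjusted p = 0.0314, 0.0162 and 0.0471) and KRT15 did not (0.151). As KRT7 was proposed from these data, its p-value supports nothing. Left-out libraries moved the basal count from 6 to 3 without HSC4 in HPLM, 2 without SAS in DMEM and 3 without SAS in HPLM, and the simple count from 2 to 1 without either HSC4 library or SAS in DMEM.

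Later squamous differentiation genes and desmosomes were lower where they differed. Of 17 keratinocyte differentiation genes tested 3 were SAS-low and 0 SAS-high, with a median of -1.55, or -0.77 with genes at 0 in a line set at the floor. SPRR1B, a cornified envelope precursor, was at 0.747 and 2.63 CPM in SAS against 24.1 to 175 CPM (log2 fold change -5.15, SE 0.30, edgeR adjusted p = 0.00058). Of 11 desmosome genes 7 were SAS-low, 0 were SAS-high and all 11 had a fold change below 0, with a median of -0.93. DSC3, a desmosomal cadherin, was at 3.79 and 4.07 CPM in SAS, 16 and 14.1 in HSC3 and 37.1 and 33 in HSC4 (log2 fold change -2.46, SE 0.15). PKP1, a plaque protein that links those cadherins to keratin, was at 14.5 and 14 CPM against 24.7 to 74.8 CPM, and JUP, plakoglobin, at 64.9 and 65.5 CPM against 108 to 140 CPM. The SAS libraries lay below the 4 others in each. SPRR1B (edgeR adjusted p = 0.0689), DSC3 (0.0672), PKP1 (0.133) and JUP (0.0569) did not pass in the pooled contrast. Left-out libraries kept the desmosome count between 5 and 6 and moved that of differentiation genes to 1 without HSC4 in HPLM or either SAS library.

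Tight and adherens junction genes did not move together: of 23 tested, 2 were SAS-high and 5 SAS-low, with a median of -0.11. PRSS8, a membrane-anchored protease of tight epithelia, was at 0.693 and 1.44 CPM in SAS against 17.9 to 36.1 CPM (log2 fold change -4.50, SE 0.30, edgeR adjusted p = 0.000729). CLDN7, a claudin, was at 13.3 and 32.4 CPM against 64 to 138 CPM. CDH1, E-cadherin, was at 61.4 and 63.7 CPM in SAS, within the range of the others (37.8 to 193 CPM, edgeR adjusted p = 0.0851). PRSS8 passed in the pooled contrast (edgeR adjusted p = 0.0319) and CLDN7 did not (0.0535). The junction counts without 1 library were 0 SAS-high without either HSC4 library or SAS in HPLM and 1 without SAS in DMEM, and 3 SAS-low without HSC3 in DMEM or SAS in DMEM.

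Genes of mesenchymal transition gave 4 SAS-high and 1 SAS-low of 20 tested, with a median of 0.56, and the 4 fell to 0 without SAS in DMEM. TWIST2, a transcription factor of dermal mesenchyme, was at 11.8 and 7.4 CPM in SAS, 0.814 and 1.29 in HSC3 and 0 in HSC4; its SAS-high call was lost without SAS in DMEM, where the log2 fold change was 6.25, a value that depends on the zero in HSC4. VIM, vimentin, was at 139 and 86.7 CPM in SAS, within the 76.9 to 298 CPM of the others (edgeR adjusted p = 0.209). CDH2, N-cadherin, was at 17.4 and 21.9 CPM in SAS and 14.9 and 8.47 in HSC4 but at 0.509 and 0.843 in HSC3, and it passed against HSC3 (edgeR adjusted p = 0.0013) and not against HSC4 (0.0657). FN1, fibronectin, was likewise lowest in HSC3, at 278 and 194 CPM in SAS, 216 and 353 in HSC4 and 14.4 and 17.6 in HSC3 (edgeR adjusted p = 0.00113 against HSC3 and 0.831 against HSC4).

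Integrin, hemidesmosome and laminin genes were lower where they passed, but for 1 gene. Of 12 integrins 4 were SAS-low and 0 SAS-high (median -0.57), and of 15 hemidesmosome and laminin genes 5 were SAS-low and 1 SAS-high (median -0.13). ITGB6, the subunit of the epithelial integrin that activates TGF-beta, was at 2.24 and 2.14 CPM in SAS, 7.42 and 5.75 in HSC3 and 54.5 and 38.5 in HSC4 (log2 fold change -2.90, SE 0.17, edgeR adjusted p = 0.000583). LAMA3, a chain of laminin-332, was at 96.2 and 60.7 CPM against 139 to 344 CPM, and LAMB3, its partner chain, at 272 and 253 CPM against 534 to 598 CPM. In LAMB3 and LAMA3 the SAS libraries lay below all others, and LAMB3 passed in the pooled contrast (edgeR adjusted p = 0.0446), while LAMA3 (0.0986) and ITGB6 (0.168) did not. The integrin count fell to 1 without HSC4 in DMEM or SAS in HPLM and to 2 without HSC4 in HPLM, and the SAS-high laminin was lost without either HSC3 library or either SAS library.

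Some secreted proteases and their inhibitors were higher in SAS and others lower. Of 11 kallikreins 2 were SAS-high, KLK6 and KLK13, and 0 SAS-low, with a median of 0.75. KLK6 was proposed from these data, so its p-values and its place in this count are a description and support nothing. The log2 fold change of KLK6 was 5.80 with an SE of 0.27, and its edgeR adjusted p was 0.000348, or 0.0162 in the pooled contrast. KLK13 was at 13.8 and 7.75 CPM in SAS and 0 to 0.843 CPM elsewhere, and its SAS-high call was lost without SAS in DMEM, where the log2 fold change was 5.24, a value that depends on the near-zero level in HSC4. KLK5, the kallikrein that starts the skin protease cascade, was at 103 and 112 CPM in SAS, between HSC3 at 203 and 160 and HSC4 at 0.729 and 3.78. Of 22 matrix metalloproteinase and plasminogen genes 6 were SAS-low and 2 SAS-high, with a median of -0.51. MMP9, a type IV collagenase, was at 1.55 and 0.745 CPM in SAS against 9.22 to 40.1 CPM (log2 fold change -4.39, SE 0.38). MMP10, a stromelysin, was at 0.427 and 0.0994 CPM against 5.19 to 12.2 CPM, and SERPINE2, an inhibitor of thrombin and plasminogen activators, at 14.9 and 9.94 CPM against 46.4 to 103 CPM. TIMP3, an inhibitor of metalloproteinases, was higher at 27 and 18.3 CPM against 3.02 to 7.73 CPM, with a log2 fold change of 1.66 and no SAS-high call without SAS in DMEM. MMP10 and SERPINE2 passed in the pooled contrast (edgeR adjusted p = 0.0478 and 0.0314), and MMP9 (0.0512), TIMP3 (0.0876) and KLK13 (0.0984) did not. The count of 6 was 3 without SAS in HPLM, the 2 SAS-high members were 0 without SAS in DMEM, and the 2 kallikreins were 1 without SAS in DMEM.

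**Figure D3:**
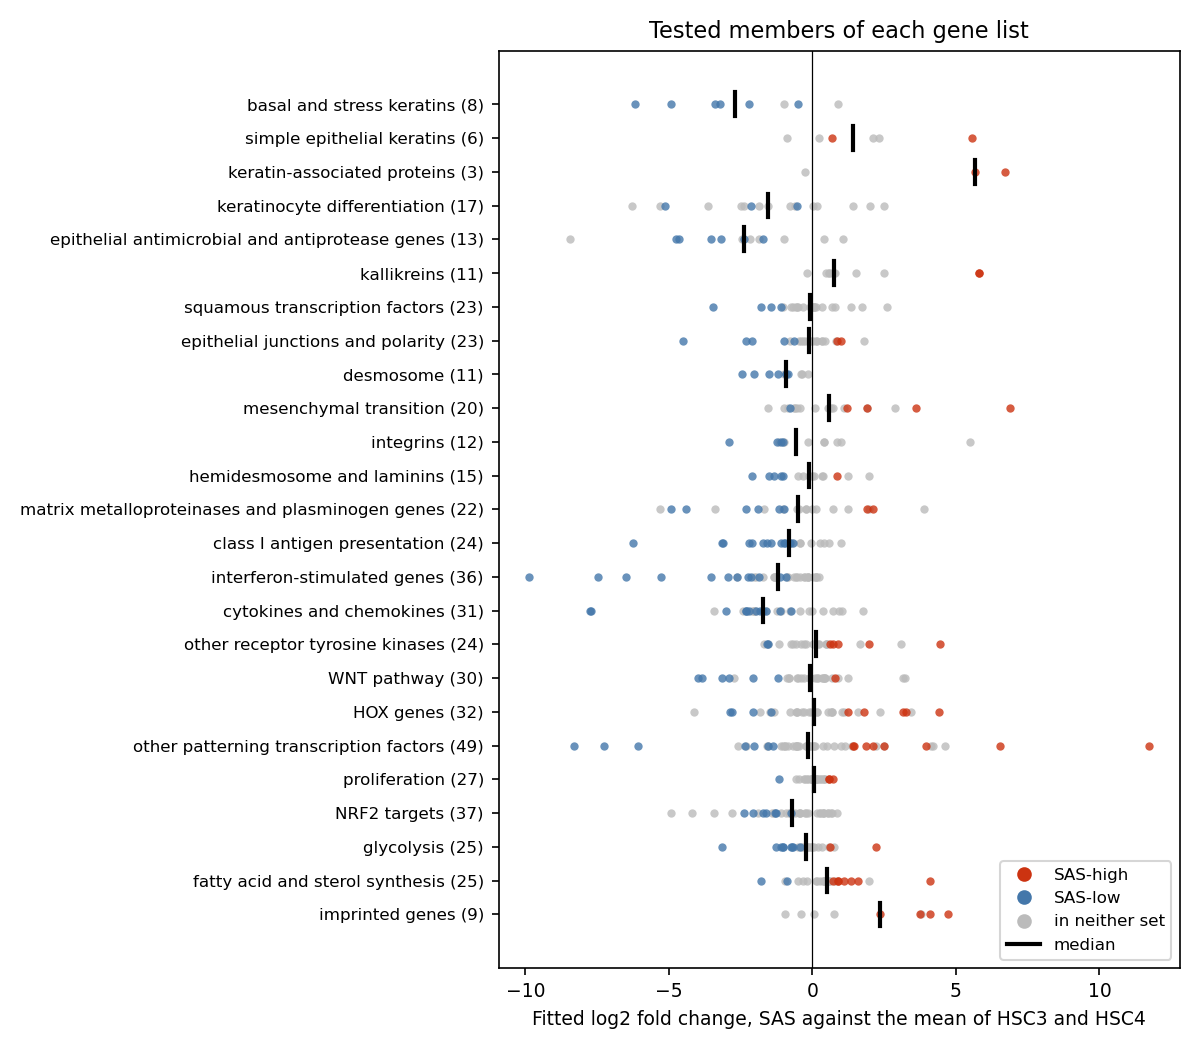
Fitted log2 fold change of SAS against the mean of HSC3 and HSC4 for each tested member of the gene lists, with the number tested in brackets; red members are SAS-high, blue SAS-low and grey neither, and the black bar is the median. The values of genes at 0 in a line depend on the prior count of the fit. Basal and stress keratins (median -2.71), cytokines and chemokines (-1.74) and interferon-stimulated genes (-1.21) lie mostly left of 0, and imprinted genes (2.35) mostly right.

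Class I antigen presentation was by number the list with the most SAS-low members, 14 of 24 tested, with 0 SAS-high and a median log2 fold change of -0.81. By share it lay below basal and stress keratins (6 of 8) and desmosome genes (7 of 11). Class I molecules are made of a heavy chain, such as HLA-B, HLA-C or HLA-E, and beta-2-microglobulin, and they show peptides that the immunoproteasome cuts, the TAP transporter carries and ERAP enzymes trim. HLA-B was at 25.2 and 19.1 CPM in SAS against 157 to 284 CPM, and its log2 fold change was -3.16 (SE 0.10) with an edgeR adjusted p of 0.000194. HLA-C fell less, to 99.9 and 86.7 CPM in SAS from 192 to 578 CPM, a log2 fold change of -1.71 (SE 0.11), and HLA-E to 42.4 and 33.8 CPM from 109 to 131 CPM (-1.58, SE 0.10). Both SAS libraries lay below the 4 others for each of these heavy chains. HLA-B and HLA-E also passed in the pooled contrast (edgeR adjusted p = 0.0209 and 0.0319), and HLA-C did not (0.104). HLA genes differ between people, so a read may match a reference transcript of another allele poorly, and what this does to these values was not tested. HLA-C and HLA-B also end a run of 8 SAS-low genes on chromosome 6, which held VARS2, a mitochondrial tRNA synthetase, and TCF19. TAP1 is on chromosome 6 as well. Whether the low class I count goes with shared position was not tested.

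B2M and genes that supply class I with peptide were among the 14 SAS-low members. B2M, beta-2-microglobulin, was at 1158 and 1044 CPM in SAS, 1614 and 1579 in HSC3 and 4542 and 3345 in HSC4 (log2 fold change -1.10, SE 0.11). TAP1, a chain of the peptide transporter, was at 14.9 and 15 CPM against 35.1 to 64.5 CPM, and PSMB9, a catalytic subunit of the immunoproteasome, at 22.4 and 19.9 CPM against 74.3 to 131 CPM. ERAP2, which trims peptides in the endoplasmic reticulum, was at 2.61 and 1.89 CPM against 14.5 to 25.4 CPM (log2 fold change -3.12, SE 0.23, edgeR adjusted p = 0.000866). Without 1 library the count of 14 was 9 without HSC4 in DMEM or SAS in HPLM. Of 5 class II genes tested 0 were SAS-high or SAS-low. PSMB9 and ERAP2 passed in the pooled contrast (edgeR adjusted p = 0.0361 and 0.0346) and B2M (0.213) and TAP1 (0.069) did not. The SAS-low call of B2M was lost without HSC3 in HPLM or either SAS library (log2 fold changes -1.05, -1.05 and -1.17), and that of TAP1 without HSC3 in HPLM or SAS in DMEM (-1.27 and -1.23). B2M, TAP1, PSMB9 and ERAP2, with IFI27, IFI44 and the genes named below for their promoters, were chosen after their values were seen.

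Interferon-stimulated genes, which cells switch on through STAT factors after interferon binds, gave 12 SAS-low and 0 SAS-high of 36 tested, with a median of -1.21. IFI27, a mitochondrial interferon-induced protein, was at 0 in both SAS libraries and 4.71 to 10.1 CPM elsewhere, at least 40.6-fold lower. BST2, the tetherin that holds budding virus at the cell surface, was at 0.267 and 0.0497 CPM in SAS, 2.29 and 4.07 in HSC3 and 79.9 and 69 in HSC4. OAS2, an enzyme that makes the activator of an antiviral RNase, was at 0.48 and 0.298 CPM against 11.2 to 33.6 CPM (log2 fold change -5.28, SE 0.45, edgeR adjusted p = 0.00122). IFI44 was at 6.77 and 1.09 CPM against 17.6 to 139 CPM, and LGALS3BP, a secreted glycoprotein, at 116 and 109 CPM against 208 to 352 CPM. HSC4 was the highest line for BST2, IFI44 and LGALS3BP, and SAS the lowest for all 5. OAS2 and IFI27 passed in the pooled contrast (edgeR adjusted p = 0.0319 for both) and BST2 (0.147), IFI44 (0.0966) and LGALS3BP (0.0766) did not. Without medium as a term IFI44 no longer passed in all 3 contrasts (log2 fold change -3.37). The count of 12 was 6 without SAS in DMEM.

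Some members of both lists share a sequence feature near their starts. The 250 bases upstream of each RefSeq gene start (GRCh38.p14) were searched on both strands for TTTC, any 2 bases and TTTC, which on the other strand reads GAAA, any 2 bases and GAAA, the core of the element bound by interferon regulatory factors; overlapping matches were allowed. Of 10680 tested genes with a promoter in that set, 2.41% held a match, against 4.44% of 1082 SAS-low and 1.88% of 959 SAS-high genes, and 3.07% of all 27305 promoters. Of the SAS-low class I genes 12 had a promoter in the set and 6 held a match: HLA-F, B2M, TAP1, TAP2, TAPBP and PSME2. Of the SAS-low interferon-stimulated genes 11 had a promoter and 6 held a match: IFI6, IFI27, IFI44, BST2, LGALS3BP and CXCL10. Of the 12 genes with a match, HLA-F, IFI27, IFI44, BST2 and LGALS3BP kept their SAS-low call with any 1 library left out, and B2M, TAP1, TAP2, TAPBP, PSME2, IFI6 and CXCL10 lost it in at least 1 such fit. The interferon-stimulated list was drawn up from genes known to respond to interferon, so a high share is part of its definition. The class I list is one of function, but its genes are also known to respond to interferon, so its share supports nothing either. A match is no evidence of binding. Of 9 SAS-low genes of the cytokine list with a promoter, 0 held the interferon element. The chemokine CXCL10, which holds it, was counted in the interferon list. Of the 9, 4 (CXCL6, IL32, NFKBIA and TNFAIP3) held GGG, any 2 bases and TTTCC, a form of the site that NF-kB binds. NFKBIA and TNFAIP3 are feedback regulators of NF-kB and not cytokines, so their matches support nothing. The NF-kB form was in 1.96% of tested and 2.59% of SAS-low genes with a promoter. It was also in 3 of the 12 SAS-low class I promoters (B2M, TAP1 and TAPBP). A form of the AP-1 site, TGA, any base and TCA, was in 2 of the 9 promoters of the cytokine list (IL1A and IL23A). It was in 4.18% of tested genes with a promoter. With 1 of the 6 libraries left out, CXCL6, IL32 and TNFAIP3 each lost their SAS-low call in 3 fits and NFKBIA in 1; IL32 and TNFAIP3 also lost it with DESeq2 and without medium as a term, and IL32 with limma-voom and without the filter on low values. The 4 promoters below show the interferon element in genes of each list that were low in SAS, with the matches in capitals and all other bases in lower case, 5′ to 3′ on the strand of the gene and ending at the base before its start. B2M is at chr15:44711267-44711516 on the plus strand, TAP1 at chr6:32853705-32853954 on the minus strand, IFI27 at chr14:94110486-94110735 on the plus strand and BST2 at chr19:17405631-17405880 on the minus strand.
B2M: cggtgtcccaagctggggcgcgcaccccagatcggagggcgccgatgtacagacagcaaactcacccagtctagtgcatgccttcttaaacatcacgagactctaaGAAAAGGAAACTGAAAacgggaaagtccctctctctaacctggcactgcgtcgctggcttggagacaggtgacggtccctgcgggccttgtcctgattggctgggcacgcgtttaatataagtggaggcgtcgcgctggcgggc
TAP1: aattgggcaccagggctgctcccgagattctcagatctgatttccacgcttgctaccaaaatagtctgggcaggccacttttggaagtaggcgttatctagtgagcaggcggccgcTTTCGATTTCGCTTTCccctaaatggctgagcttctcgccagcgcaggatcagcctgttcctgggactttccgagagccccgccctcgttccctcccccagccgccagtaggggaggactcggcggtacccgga
IFI27: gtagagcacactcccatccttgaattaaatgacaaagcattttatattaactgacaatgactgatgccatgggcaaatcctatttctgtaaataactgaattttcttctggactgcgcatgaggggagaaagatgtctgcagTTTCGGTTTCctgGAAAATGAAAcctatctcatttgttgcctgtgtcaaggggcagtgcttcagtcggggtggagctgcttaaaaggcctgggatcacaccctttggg
BST2: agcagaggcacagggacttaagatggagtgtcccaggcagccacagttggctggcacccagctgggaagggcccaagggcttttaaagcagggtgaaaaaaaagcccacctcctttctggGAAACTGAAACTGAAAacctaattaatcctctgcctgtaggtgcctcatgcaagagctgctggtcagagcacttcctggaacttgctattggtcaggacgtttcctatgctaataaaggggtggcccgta
In B2M, TAP1 and BST2 a pair of overlapping matches lies close together, and in IFI27 both matches are separate and on opposite strands. The level of these genes in SAS ran from 0 for IFI27 to 1158 CPM for B2M.

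**Figure D4:**
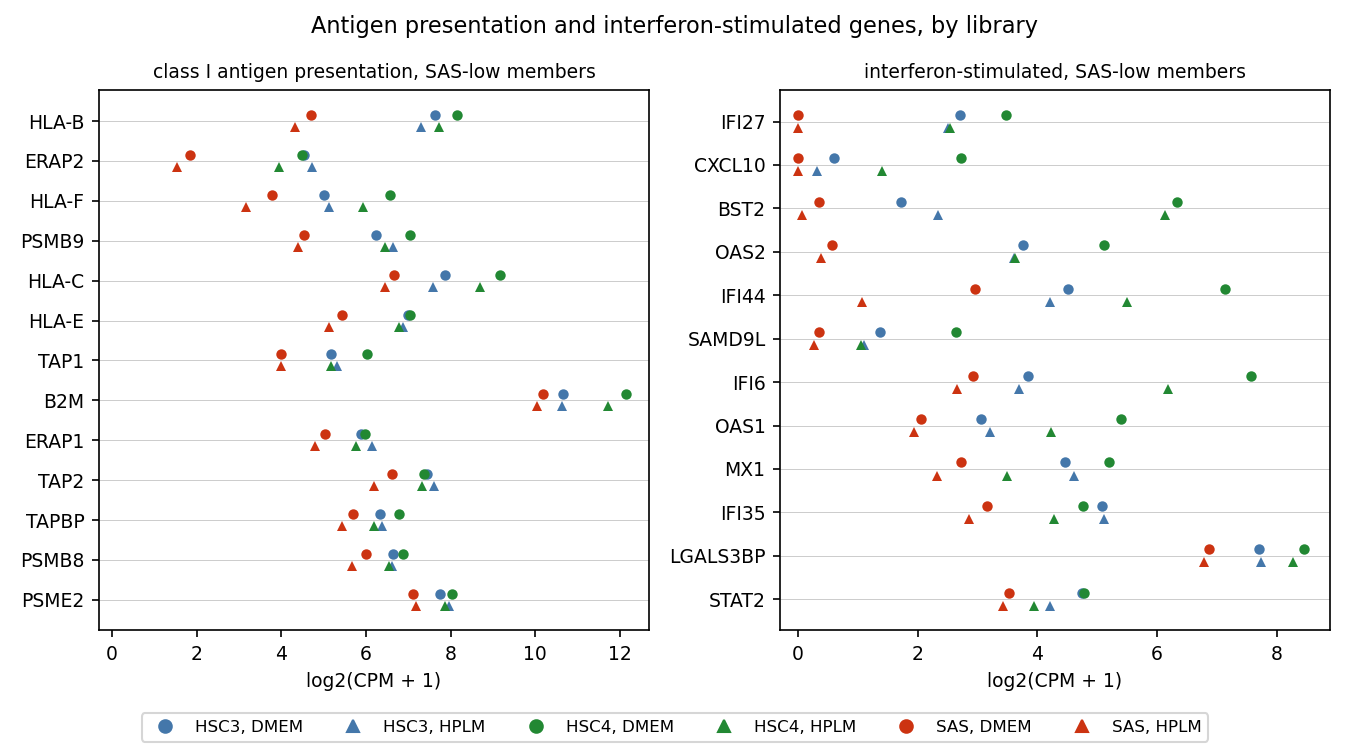
Level in log2(CPM + 1) of 13 of the 14 SAS-low class I genes (left) and the 12 SAS-low interferon-stimulated genes (right) in each library; colour is the line, circles are DMEM and triangles HPLM. The SAS symbols lie lowest in every row, with HLA-B at 25.2 and 19.1 CPM against 157 to 284.

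Some inflammatory and antimicrobial genes of stressed epithelium were low in SAS. Of 31 tested genes of the cytokine and chemokine list 12 were SAS-low and 0 SAS-high, with a median of -1.74. That list also holds NFKBIA and TNFAIP3, which are not cytokines. Of 13 epithelial antimicrobial and antiprotease genes 6 were SAS-low and 0 SAS-high, with a median of -2.39. TNF, the inflammatory cytokine, was at 0 and 0.248 CPM in SAS against 17.6 to 68.5 CPM (log2 fold change -7.71, SE 0.79, edgeR adjusted p = 0.00194). IL1B was at 58.2 and 71.4 CPM against 191 to 412 CPM (log2 fold change -2.21, SE 0.21), CXCL16, a membrane-bound chemokine, at 9.81 and 16.7 CPM against 39.6 to 63.2 CPM, and CSF1, the macrophage growth factor, at 3.41 and 5.52 CPM against 8.7 to 53.2 CPM. Both SAS libraries lay below the 4 others in each. S100A8, a chain of the antimicrobial calprotectin, was at 0.48 and 3.28 CPM in SAS, 26.7 and 89.1 in HSC3 and 12.7 and 67.5 in HSC4, so that each line had more in HPLM and SAS stayed lowest in both media. LCN2, the iron-scavenging lipocalin, was at 1.23 and 4.52 CPM in SAS against 11.3 to 157 CPM, and SAA1, an acute-phase protein, at 7.25 and 61 CPM against 63.7 to 938 CPM. In SAA1 the SAS library in HPLM came close to the lowest of the others, HSC4 in DMEM. TNF, IL1B, CXCL16, S100A8 and LCN2 passed in the pooled contrast (edgeR adjusted p = 0.0433, 0.0341, 0.0407, 0.0341 and 0.0405), while CSF1 (0.157) and SAA1 (0.0851) did not. Without medium as a term SAA1 lost its SAS-low call (log2 fold change -2.97). The cytokine count was 5 without SAS in DMEM.

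Few transcription factors of squamous fate passed, and those that did were lower. Of 23 tested 4 were SAS-low and 0 SAS-high, beside 9.99% and 8.94% of all genes tested. Their fold changes were above 0 in 10 and below 0 in 13, with a median of -0.08. SOX15 was at 14.9 and 7.6 CPM in SAS against 108 to 153 CPM (log2 fold change -3.46, SE 0.21, edgeR adjusted p = 0.000608). EHF, an epithelial ETS factor, was at 17.2 and 24.2 CPM against 58 to 109 CPM, and FOXE1, a forkhead factor of thyroid and palate, at 8.21 and 8 CPM against 18 to 30.8 CPM. SOX15 passed in the pooled contrast (edgeR adjusted p = 0.0314) and EHF (0.0635) and FOXE1 (0.055) did not. TP63, the master factor of squamous epithelium, was at 48.6 and 33.3 CPM in SAS, overlapping HSC4 at 42.7 and 45.9 and below HSC3 at 74.7 and 119, and did not pass against the mean (edgeR adjusted p = 0.0961). TP63-203 was its leading transcript in every library, at 32.5 and 21.5 CPM in SAS.

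Body-patterning factors that passed lay in both directions, and most did not pass. Over all genes tested 8.94% were SAS-high and 9.99% SAS-low. Of 49 patterning factors outside the HOX clusters 8 were SAS-high and 7 SAS-low (median -0.15), and of 32 HOX genes 5 were SAS-high and 4 SAS-low (median 0.05). Besides BARX1, IRX2 was at 70.5 and 55.5 CPM in SAS, 28.5 and 24 in HSC3 and 8.64 and 9.09 in HSC4 (log2 fold change 2.12, SE 0.12, edgeR adjusted p = 0.000509). HOXD4 was at 7.09 and 4.77 CPM in SAS against 0.102 to 0.989 CPM (log2 fold change 4.42, SE 0.42). TBX18, a T-box factor of mesenchyme, was at 0 and 0.0994 CPM in SAS against 5.34 to 16.7 CPM, a ratio of the other lines to SAS of 197 (exact 95% counting interval 54.4 to 1630). TBX18 passed in the pooled contrast (edgeR adjusted p = 0.0446) and IRX2 (0.158) and HOXD4 (0.0679) did not. NKX2-5, a cardiac factor, was at 32.2 and 30.3 CPM in SAS and 18.8 and 21.6 in HSC4 and at 0 in both HSC3 libraries, and its SAS-high call was lost without either HSC4 library or either SAS library, with log2 fold changes of 6.44, 6.61, 6.40 and 6.68 that depend on the zero in HSC3. Without 1 library, the SAS-high HOX count was 3 without HSC3 in DMEM and 1 without either HSC4 or either SAS library, and the SAS-low HOX count was 0 without HSC3 in DMEM, 1 without SAS in DMEM and 2 without HSC4 in DMEM, HSC4 in HPLM or SAS in HPLM. The patterning counts were 4 SAS-high and 4 SAS-low without SAS in DMEM and 5 SAS-high without SAS in HPLM.

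WNT genes that passed were mostly lower, and as many NOTCH genes were SAS-high as SAS-low. Over all genes tested 8.94% were SAS-high and 9.99% SAS-low. Of 30 WNT pathway genes 6 were SAS-low and 1 SAS-high (median -0.10). LGR4, a receptor for R-spondins that strengthens WNT signalling, was at 5.23 and 5.12 CPM in SAS against 44 to 52.8 CPM (log2 fold change -3.14, SE 0.13, edgeR adjusted p = 0.000276, and 0.0162 in the pooled contrast). FZD8, a frizzled receptor, was at 0.213 and 0.199 CPM against 1.83 to 5.59 CPM, and WNT7A, a ligand of skin and limb, at 3.31 and 1.84 CPM against 13.7 to 27 CPM. Of 17 NOTCH pathway genes 2 were SAS-high and 2 SAS-low (median 0.06): MAML2, a coactivator, was at 10.9 and 9.49 CPM against 2.78 to 3.67 CPM, and MFNG, a sugar transferase that modifies NOTCH, at 4.11 and 3.03 CPM against 11.1 to 15.4 CPM. MAML2 passed in the pooled contrast (edgeR adjusted p = 0.0444) and FZD8 (0.0578), WNT7A (0.0536) and MFNG (0.0512) did not. The SAS-high WNT gene was lost without HSC4 in DMEM or SAS in DMEM. The NOTCH counts fell from 2 to 1 without HSC4 in DMEM or SAS in DMEM on the high side and without either HSC3 library or SAS in HPLM on the low side.

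EGFR was lower in SAS, and other growth factor receptors that passed lay in both directions. EGFR, the receptor most often raised in oral carcinoma, was at 111 and 90.7 CPM in SAS, 390 and 337 in HSC3 and 235 and 202 in HSC4 (log2 fold change -1.41, SE 0.09, edgeR adjusted p = 0.000681), and was the single SAS-low member of 11 EGF receptors and ligands, which had 2 without either HSC3 library, HSC4 in HPLM or SAS in HPLM. MET, the hepatocyte growth factor receptor, was at 159 and 154 CPM against 80.9 to 98.2 CPM (log2 fold change 0.89, SE 0.09). Its relative MST1R was at 12.3 and 11.5 CPM against 29.4 to 44.6 CPM, and DDR1, a collagen receptor, at 99.7 and 90.4 CPM against 262 to 329 CPM. Of 24 other receptor tyrosine kinases 5 were SAS-high and 2 SAS-low, with a median of 0.12, and the 5 were 2 without HSC3 in DMEM and 1 without either HSC4 library or SAS in DMEM. Among 10 insulin-like growth factor genes 4 were SAS-high and 2 SAS-low (median 0.34), with 7 fold changes above 0 and 3 below. The 2 SAS-low genes were IGFBP6, a binding protein, at 15.3 and 7.11 CPM against 47.1 to 88 CPM, and IGF2BP1, an RNA-binding protein of growing cells, at 5.12 and 5.71 CPM against 16.1 to 23.1 CPM. The 4 SAS-high genes were 2 without HSC3 in HPLM and 1 without either HSC4 or either SAS library. DDR1, MST1R and IGFBP6 passed in the pooled contrast (edgeR adjusted p = 0.0398, 0.0447 and 0.0471) and EGFR (0.106), MET (0.0776) and IGF2BP1 (0.0569) did not.

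On the short arm of chromosome 12, 1 gene was SAS-high where its tested neighbours within 1 Mb were not. It was chosen, as were the genes of the next windows, after its value was seen. SINHCAF, a subunit of the SIN3-histone deacetylase complex at chr12:31280584-31327058, was at 691 and 589 CPM in SAS against 33.4 to 51.4 CPM (log2 fold change 4.11, SE 0.14, edgeR adjusted p = 0.000194). Of 8 tested protein-coding genes that start within 1 Mb of it, SINHCAF was the single SAS-high member and 4 were SAS-low.

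On the long arm, MDM2, a ubiquitin ligase often amplified in tumours, was at 27 and 33.4 CPM in SAS against 10.7 to 12.3 CPM (log2 fold change 1.46, SE 0.14, edgeR adjusted p = 0.00158). Of 18 tested protein-coding genes that start within 2 Mb of MDM2, 12 were SAS-high and 0 SAS-low. CCT2, a chaperonin subunit, was at 851 and 757 CPM against 249 to 274 CPM (log2 fold change 1.69, SE 0.09), and CAND1, an exchange factor of cullin ligases, at 164 and 137 CPM against 59.2 to 72.1 CPM. Each tested neighbour from CAND1 to BEST3 was SAS-high except the gene of carboxypeptidase M, and RAB3IP, the next, was at 3.79 and 4.82 CPM against 4.42 to 8.52 CPM (edgeR adjusted p = 0.142). BEST3, at 2.29 and 7.65 CPM in SAS, lost its call without either HSC3 library, HSC4 in HPLM or SAS in HPLM (log2 fold changes 2.35, 2.18, 1.91 and 1.46). On chromosome 3, 8 of 12 tested protein-coding genes within 1 Mb of PPARG were SAS-high and 0 SAS-low. They included MKRN2, a ring finger protein, at 55.2 and 58.4 CPM against 7.09 to 15.9 CPM (log2 fold change 2.54, SE 0.11). These windows were chosen for the genes at their centres, so their counts are descriptions.

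**Figure D5:**
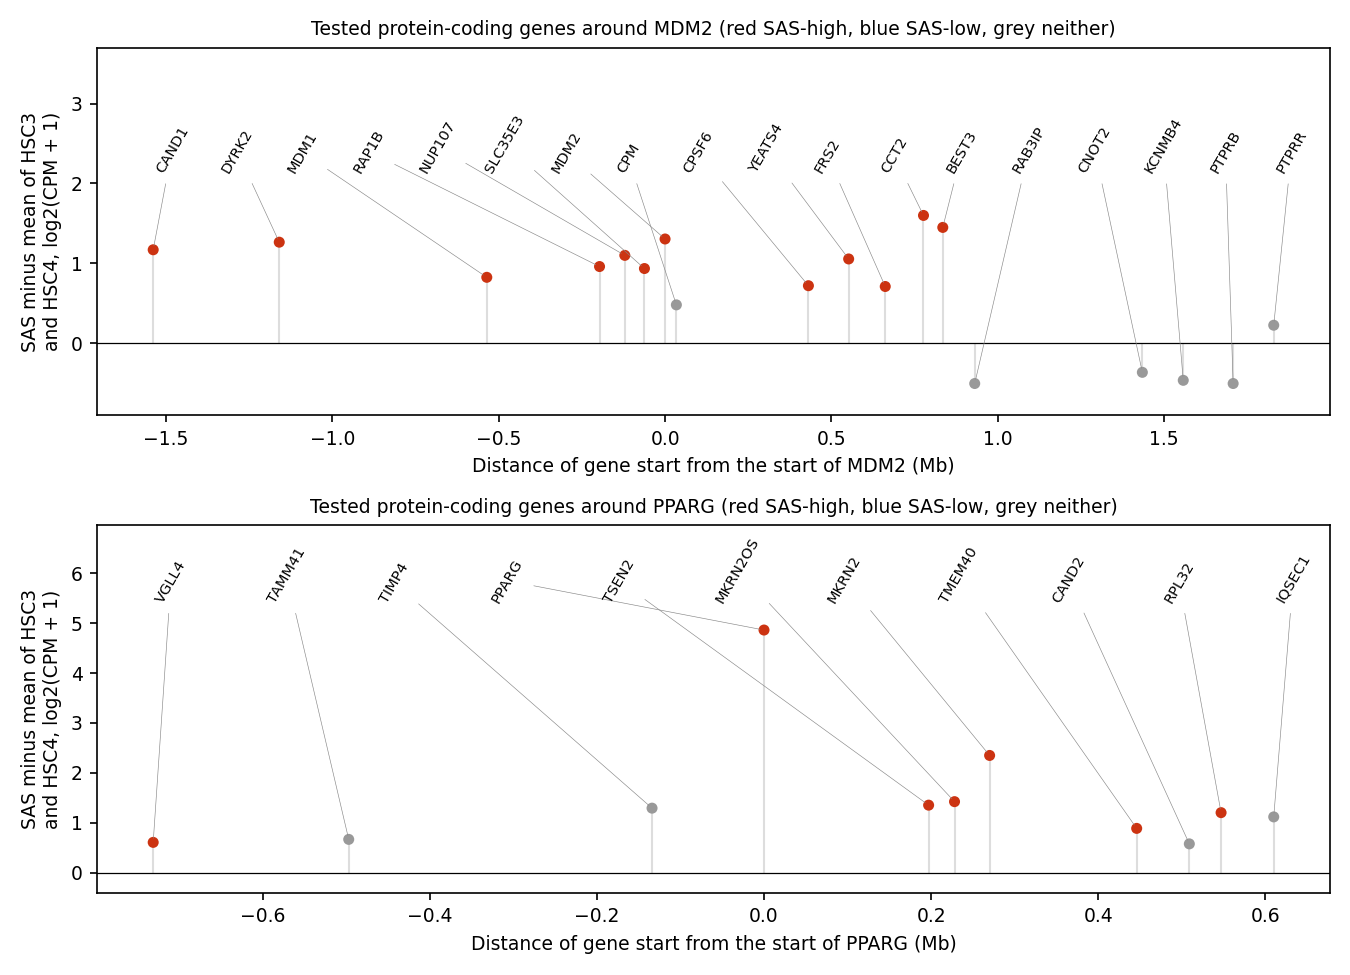
Difference in log2(CPM + 1) between SAS and the mean of HSC3 and HSC4 (y axis) for tested protein-coding genes against the distance of their start from that of MDM2 or PPARG in Mb (x axis); red is SAS-high, blue SAS-low and grey neither. 1 of the 12 genes around PPARG is not drawn. Around MDM2 the run of red genes ends at BEST3.

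Cell cycle inhibitors and G1 cyclins gave 2 SAS-high and 3 SAS-low of 25 tested, with a median of -0.27. These counts are near the shares over all genes tested, 8.94% and 9.99%. The 2 SAS-high genes were 0 without either HSC3 or either SAS library and 1 without either HSC4 library. Of 27 proliferation genes 3 were SAS-high and 1 SAS-low, with a median of 0.05, and the 3 were 0 without HSC4 in DMEM or either SAS library and 1 without HSC4 in HPLM. PCNA, the replication clamp, was the SAS-low member at 253 and 203 CPM against 389 to 723 CPM. CDKN1B, the inhibitor p27, was at 11.7 and 9.79 CPM against 22 to 26.2 CPM (log2 fold change -1.08, SE 0.11, edgeR adjusted p = 0.00205), and CDKN2C, the inhibitor p18, at 2.29 and 2.39 CPM against 10.1 to 21.1 CPM. Both passed in the pooled contrast (edgeR adjusted p = 0.0478 and 0.0433), and PCNA did not (0.0835). CDKN2A was at 61.3 and 36.2 CPM in SAS against 22.7 to 66.5 CPM, within the range of the others. Its transcripts divided the lines in another way: the leading CDKN2A transcript was at 47.9 and 24.3 CPM in SAS, 31.7 and 15.6 in HSC3 and 10 and 8.28 in HSC4, and CDKN2A-201 at 1.16 and 0.429 CPM in SAS against 16.8 and 12.8 in HSC3 and 1.65 and 2.77 in HSC4.

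Some lipid and sterol synthesis genes were higher in SAS and some glycolysis genes lower. Of 25 fatty acid and sterol synthesis genes 7 were SAS-high and 2 SAS-low, with a median of 0.51. FASN, fatty acid synthase, was at 154 and 110 CPM in SAS against 36.2 to 62.5 CPM (log2 fold change 1.58, SE 0.12, edgeR adjusted p = 0.000891). SQLE, which makes the sterol precursor squalene epoxide, was at 143 and 114 CPM against 51.5 to 54.8 CPM (1.33, SE 0.11), and ELOVL4, an elongase of very long fatty acids, at 6.88 and 5.86 CPM against 0.169 to 0.712 CPM. Of 25 glycolysis genes 9 were SAS-low and 2 SAS-high, with a median of -0.24. HK1, a hexokinase, was at 76.6 and 66.9 CPM against 138 to 168 CPM (log2 fold change -1.04, SE 0.12), whereas SLC16A3, the lactate exporter, rose to 162 and 192 CPM from 20.4 to 71.8 CPM (2.22, SE 0.10). In FASN, SQLE and SLC16A3 both SAS libraries lay above the 4 others. FASN and SQLE passed in the pooled contrast (edgeR adjusted p = 0.0478 and 0.0339) and ELOVL4 (0.0571), HK1 (0.0629) and SLC16A3 (0.134) did not. The 2 SAS-low lipid genes were 1 without HSC4 in DMEM, and the 2 SAS-high glycolysis genes were 1 without HSC3 in DMEM, either HSC4 library or SAS in DMEM. The lipid count of 7 was 4 without HSC4 in DMEM or SAS in DMEM. The glycolysis count of 9 was 4 without HSC3 in HPLM or HSC4 in DMEM, 3 without HSC4 in HPLM or SAS in DMEM and 1 without SAS in HPLM.

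Some detoxification genes were low in SAS, and most did not pass. Of 37 NRF2 targets, genes of the antioxidant response, 7 were SAS-low and 0 SAS-high, with a median of -0.70. CBR1, a carbonyl reductase, was at 18.3 and 10.7 CPM against 36 to 71 CPM, and its SAS-low call was lost without HSC4 in HPLM, where the log2 fold change was -1.58. AKR1C1, an aldo-keto reductase, was at 0.213 and 0.398 CPM in SAS, 132 and 33.2 in HSC3 and 1.87 and 1.02 in HSC4, and was not SAS-low by the rule. NQO1, the quinone reductase, was at 347 and 244 CPM in SAS against 215 to 900 CPM and did not pass (edgeR adjusted p = 0.0652). CYP1A1, the main target of the aryl hydrocarbon receptor, was at 1.12 and 0.994 CPM in SAS, 32.3 and 2.83 in HSC3 and 94.7 and 17.2 in HSC4, and its SAS-low call was lost without SAS in DMEM, where the log2 fold change was -2.81 beside -4.48 with all libraries, and without medium as a term (-4.79). Whether the gap between media differed between the lines was not tested. AHRR, the repressor of that receptor, was higher at 8.05 and 6.81 CPM against 0.96 to 2.39 CPM. MT2A, a zinc-binding metallothionein, was at 7223 and 7605 CPM in SAS against 2495 to 4088 CPM (log2 fold change 1.28, SE 0.13, edgeR adjusted p = 0.00176), while MT1M was at 0.107 and 0 CPM against 4.69 to 5.8 CPM. MT2A and MT1M passed in the pooled contrast (edgeR adjusted p = 0.0444 and 0.0407) and CBR1 (0.0992), CYP1A1 (0.116) and AHRR (0.0502) did not. The NRF2 count was 11 without HSC3 in HPLM, 4 without HSC4 in DMEM or SAS in DMEM and 2 without HSC4 in HPLM.

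Imprinted genes, expressed from 1 parental copy and mostly in fetal tissue, gave 4 SAS-high and 0 SAS-low of 9 tested, with a median of 2.35. MEST, a hydrolase-like protein, was at 42.2 and 46.1 CPM in SAS against 1.14 to 6.43 CPM (log2 fold change 3.76, SE 0.39, edgeR adjusted p = 0.00203). PEG10, a protein derived from a retrotransposon, was at 15.4 and 12.1 CPM against 0.416 to 1.49 CPM (4.11, SE 0.44). GRB10, an adaptor that restrains insulin signalling, was at 10 and 9.14 CPM, 4.83 and 3.22 in HSC3 and 1.09 and 0.903 in HSC4, and lost its SAS-high call without HSC3 in HPLM or either SAS library, with log2 fold changes of 2.23, 2.53 and 2.17. MEST and PEG10 passed in the pooled contrast (edgeR adjusted p = 0.0498 and 0.0355), and GRB10 did not (0.205). The count of 4 was 2 without HSC3 in HPLM or SAS in DMEM.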

How the data were processed

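RNA of 3 established human oral carcinoma lines, each grown in 2 media, was sequenced once per line and medium. The deposited table holds estimated counts per transcript (scaled TPM, abundance multiplied up to the library size), which the authors derived from kallisto with reads checked by FastQC and the hg38 build, per the submitters' processing notes; versions, the annotation release and the use of strand were not given in the sources used here. The table has 161149 rows, of which 1312 repeat a transcript; each transcript was used once and values were summed by gene symbol and rounded. Rows without a symbol, 0.362 to 0.479% of a library, were left out.

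Genes were kept by filterByExpr (minimum count 10, total 15, grouped by line), scaled by TMM and fitted in edgeR 4.0.16 (R 4.3.3) with line and medium as terms, which left 2 residual degrees of freedom. Gene positions came from GENCODE 29 and promoters from RefSeq, both GRCh38. A gene that overlaps another, or a near-identical copy, may share its reads. Each medium was used for all 3 lines, so medium served as the block. The values hold no direct read depth, and counting intervals and floors cover counting error only. In simulated data for the SAS-high and SAS-low rule, on 13748 genes, 67.2% of genes changed 2-fold, 92.5% of those changed 4-fold and 98.5% of those changed 8-fold were called, with 1 false call. Unchanged genes there had the same mean in every line and medium. False calls among lines that differ from each other, as these do, were therefore not measured. Alternatives used limma 3.58.1 and DESeq2 1.42.0, other scalings and filters, and left out each library in turn.

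The members and lists were chosen with earlier results of these data known. Genes were named by rule: up to 15 with the largest fold change in each direction, all genes found in SAS alone or missing from it, up to 4 members of each list with the smallest p, and a few markers whatever their values; others are said to be chosen after their values were seen. A few genes are not reported here.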

Additional observations from a re-analysis of the deposited data

How the results depend on the processing

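Other scalings (upper quartile, DESeq2 size factors), filters, limma, DESeq2, a fit without medium as the replicate block and repeated rows kept both SAS-high and SAS-low counts within 1.5 times of 1262 and 1411, with ranges over these alternatives of 972 to 1395 and 1217 to 1622; without the replicate block they were 1130 and 1266. With HSC3 and HSC4 in 1 group, 161 genes were higher and 186 lower; 57 of 117 called genes named in the report passed that test, and KRT19 changed sign, to -0.05. With each library left out in turn, genes higher and lower in SAS than the mean numbered 1048 to 2450 and 1277 to 2428, than HSC3 1228 to 2153 and 1454 to 2437, and than HSC4 1020 to 2787 and 1376 to 2983, and SAS-high and SAS-low genes 442 to 824 and 680 to 1038. Of those 117 genes, 93 kept their call in each of the 6 fits and 20 lost it without SAS in DMEM. Genes found in SAS alone were 1 at 20 CPM and 9 with a value of 10 or less allowed elsewhere, and genes missing from SAS were 5 at 5 CPM, 0 at 20 CPM and 6 with a value of 10 or less allowed in SAS. With 1 culture per line and medium, no result separates the line from its single culture, and small changes of low genes could be missed.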

Other observations

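SAS-high and SAS-low genes stood in rows along the chromosomes, both in the MDM2 and PPARG neighbourhoods and elsewhere. Among 13239 tested protein-coding genes in order of position there were 9 runs of 5 or more consecutive SAS-high genes and 9 of SAS-low genes. The SAS-high runs include those next to MDM2 and PPARG described above. A run of 9 SAS-high genes on chromosome 3, from KIF9 to CDC25A (chr3:47228026-48188402), had a median log2 fold change of 0.79 and held SCAP, the sterol sensor that escorts SREBP, and CDC25A, a phosphatase that starts DNA replication. A run of 8 SAS-low genes on chromosome 6 (chr6:30908242-31357188) ended in HLA-C and HLA-B, with a median of -1.93, and also held VARS2, a mitochondrial tRNA synthetase, and TCF19. On chromosome 12 a run of 5 SAS-low genes (chr12:12357079-12722371, median -1.54) held CDKN1B, and on chromosome 20 a run of 7 (chr20:4686236-5863912, median -1.20) held PCNA. These runs were found by searching all chromosomes, the genes in them were chosen after their values were seen, and what lies behind them was not tested.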
